A study of Mus musculus with 61 samples.

Results

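The levels of 9 genes that mark pancreatic duct cells were followed across all 12 conditions of an organoid reprogramming experiment: the keratins Krt7, Krt8, Krt18 and Krt19, the secreted proteins Spp1 and Clu, and the surface proteins Muc1, Prom1 and Cd24a. These 9 of the 46078 genes in the count table were picked by name as duct keratins and surface or secreted markers, not by a threshold on their values. Organoids grown from pancreatic duct cells of C57BL/6 mice were infected with separate lentiviral vectors that carried GFP-Ngn3, LSSOrange-Pdx1 and tdTomato-MafA, and each transgene was switched on with doxycycline for 8 days. Cells were then sorted by reporter colour into pools of 50, and each pool gave 1 RNA sequencing library. A WT culture had received the vector for wild-type Ngn3, and a 6SA culture the vector for a phospho-mutant Ngn3 in which serines that cyclin-dependent kinases can phosphorylate had been changed to alanine. From each kind of culture, 3 conditions without the Ngn3 reporter (Pdx1, MafA, and Pdx1 with MafA) and 3 with it (Ngn3 with Pdx1, Ngn3 with MafA, and all 3 factors) were compared. The Ngn3-negative cells came from organoids exposed to the same vectors, carried 1 or 2 ectopic factors and a vector for the doxycycline-dependent transactivator as the Ngn3 cells did, and were not uninfected cells. The vectors were separate, so the amount of each factor could vary among the 50 cells of a pool.

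Keratins are intermediate filament proteins that assemble only as pairs of a type I chain (Krt18 and Krt19) with a type II chain (Krt7 and Krt8). Simple epithelia such as ducts use Krt8 with Krt18, and ducts add Krt7 and Krt19, which is why Krt19 is a routine stain for duct cells. During pancreas development, the basic helix-loop-helix factor Ngn3 is switched on in cells of the duct-like epithelium that leave it to become endocrine cells, and these genes are features of the epithelium they leave.

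After technical repeats were summed, 32 samples remained, 15 Ngn3-negative and 17 with Ngn3, with 2 biological replicates in 4 conditions and 3 in the other 8. Their totals on genes ran from 2579583 to 19461008 counts, and all 9 genes passed the filter on low counts. Levels are given as counts per 1000000 counts on genes (CPM) scaled by edgeR's TMM factors, and the lowest count of any of the 9 genes in a sample was 36. Neurog3, the gene for Ngn3, lay between 0 and 0.787 CPM without the Ngn3 reporter and between 7.87 and 329 CPM with it, so no sample went against the Ngn3 part of its label. The Pdx1, MafA and culture parts of the labels were not checked. The sample of MafA cells from 6SA cultures, replicate 3, stood apart, with 14574 genes detected, the fewest of the 32, and 0.396% of its counts on spike-ins, the highest share. It also held the highest Krt18, Spp1 and Clu levels, and the calls it moved are given below. Summed over 10 duct genes listed as markers and outside the 9 (among them Sox9 and Cftr), the level was 1653 to 5009.8 CPM without Ngn3 and 691 to 3165 CPM with it, and 5 of the 10 were called lower over the 6 pairs described next. Over 12 endocrine genes (among them Chga, Neurod1 and Pax6) it was 1.29 to 8.83 CPM without Ngn3 and 447 to 13460.0 CPM with it, and Neurod1 and Pax4 had at most 3 counts in every Ngn3-negative sample. Acinar genes summed to at most 49.7 CPM, immune genes to at most 44.2 CPM and stromal and endothelial genes to at most 298 CPM in any sample, and Ptf1a, Amy2a5, Adgre1 and Cdh5 had at most 3 counts in every sample. The endocrine genes, all 12 called higher over the 6 pairs, and 5 of the duct genes thus moved with the Ngn3 comparison below, and their part in it was not tested. In pools of 50 cells, fewer cells that express a gene and less RNA of it in each cell cannot be told apart.

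All 9 genes had a lower mean in the 6 conditions with Ngn3 than in the 6 without, and 8 of the 9 passed the test. Krt8, Krt18, Krt19, Spp1, Clu, Muc1, Prom1 and Cd24a fell, by amounts that ran from 1.63-fold for Prom1 to 9.66-fold for Krt19, and Krt7 was not called. The Prom1 call was lost with RLE size factors and with plain library totals, among other alternatives given below. Among all 24004 genes tested, 10.5% were called lower in this comparison, which set the mean of the 6 Ngn3 conditions against the mean of their 6 partners (edgeR quasi-likelihood test, 12 conditions in one fit, Benjamini-Hochberg adjustment over all genes, threshold 0.05). The median log2 fold change of the 9 genes was -1.23, against 0.07 for all genes tested. That median of all genes moved to 0.15 with RLE size factors and 0.28 with plain library totals, and all 9 differences kept their sign under both. The split over all genes shifted with the scaling too: 2510 were called lower and 2658 higher with TMM, against 1676 and 3623 with plain totals.

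**Figure D1:**
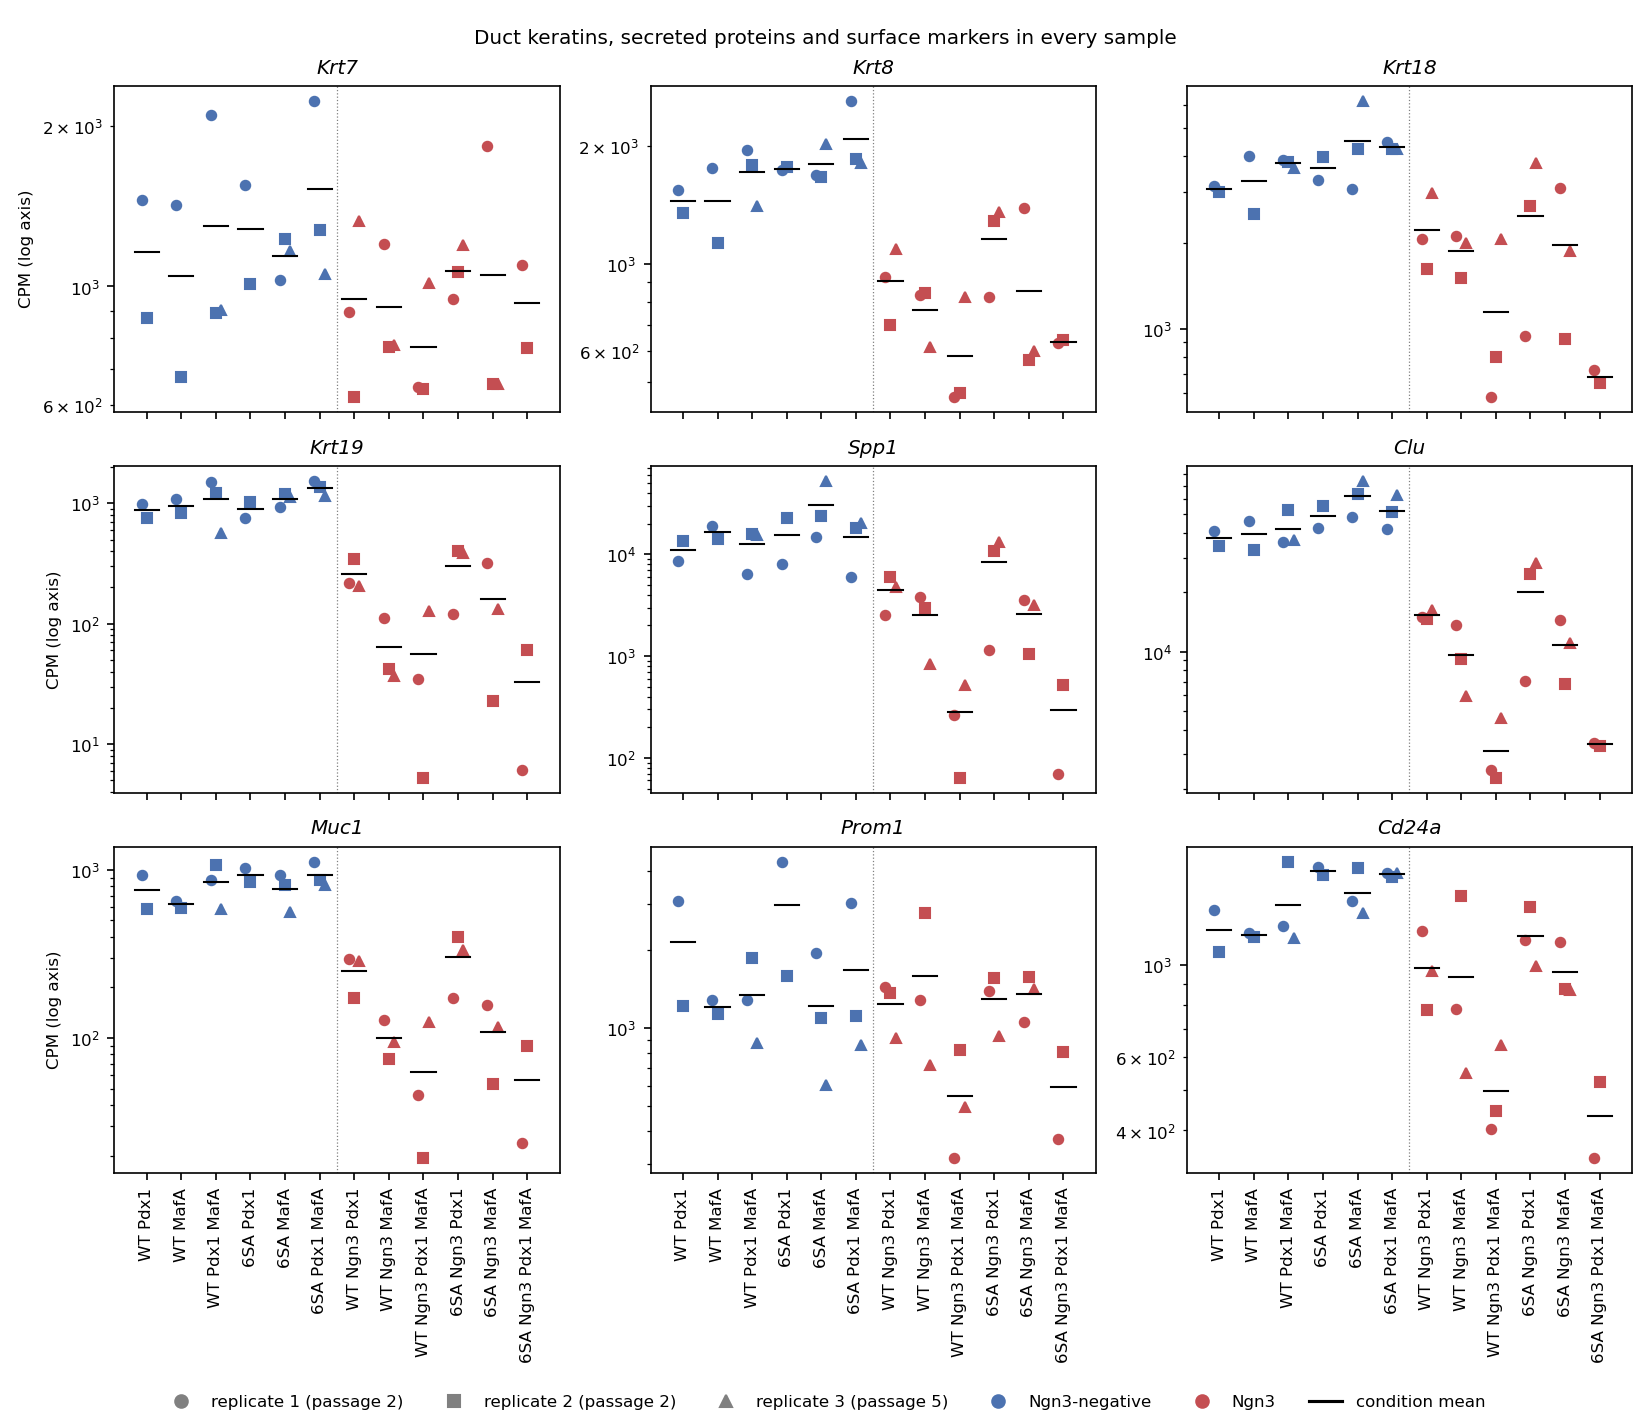
Level of each of the 9 genes in CPM (y, log axis, scaled by TMM) in each of the 12 conditions (x). Points are samples, marked by replicate number, blue without and red with Ngn3, and lines are condition means. For Krt19, Clu and Muc1 all 17 red points lie below all 15 blue points, while for Krt7 and Prom1 the colours overlap.

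Set side by side per kilobase of the principal transcript, Clu and Spp1 had the highest medians of the 9 genes over the samples of both kinds of cells. Without Ngn3 the median was 25621 CPM per kb for Clu and 10194 CPM per kb for Spp1, against 2700.3 CPM per kb for Krt18, the highest of the keratins. With Ngn3 the medians were 5078 CPM per kb for Clu, 1696 CPM per kb for Spp1 and 1299.8 CPM per kb for Krt18. With all 3 factors, however, Spp1 was below Krt18. Their means were 188 against 799 CPM per kb in WT cultures and 197 against 476 CPM per kb in 6SA cultures. At the low end the order changed: Krt7 was lowest without Ngn3, at a median of 284 CPM per kb, and Muc1 and Krt19 were lowest with it, at 55.4 and 76.5 CPM per kb. The 9 genes together took 5.33% to 9.7% (median 7.03%) of all gene counts in the Ngn3-negative samples. In the Ngn3 samples they took 0.573% to 4.69% (median 1.96%), and in the 5 samples with all 3 factors 0.573% to 1.13% (median 0.723%). No Ngn3 sample reached the lowest Ngn3-negative share, and Clu alone accounted for 3.18% to 5.7% (median 4.41%) of counts without Ngn3.

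Of the keratins, Krt8 and Krt18, the obligate pair of simple epithelia, were read first. Krt8 (ENSMUSG00000049382, GRCm38 chr15:101996698-102004482, minus strand) ran from 1131 to 2610.2 CPM (median 1762) in the 15 Ngn3-negative samples and from 457 to 1387 CPM (median 821) in the 17 Ngn3 samples. It fell 2.13-fold over the 6 pairs, a log2 fold change of -1.09 ± 0.15 (SE), adjusted p = 5.13e-06. The groups overlapped, because 3 Ngn3 samples lay inside the Ngn3-negative range, yet within each of the 6 pairs of conditions every Ngn3 sample was below every partner sample, and Krt8 was lower in all 14 same-numbered pairs. Across all genes, 2.47% were lower in every same-numbered pair. The share of all genes separated within each of the 6 pairs of conditions was not counted. In Pdx1 with MafA cells Krt8 stood at 1952, 1792 and 1409.8 CPM in the WT cultures (replicates 1 to 3) and 2610.2, 1849.9 and 1806 CPM in the 6SA cultures. When Ngn3 was added it stood at 457, 468 and 823 CPM in WT and 629 and 639 CPM in 6SA cells, all below the partner cells. Beside Pdx1 alone, Ngn3 cells held 925, 699 and 1094 CPM in WT cultures against 1549 and 1346 CPM, and 821, 1290.1 and 1358 CPM in 6SA cultures against 1741 and 1766 CPM. The 6SA difference was the smallest of the 6 for Krt8, at -0.60 ± 0.39 on the log2 scale (SE), with replicate 1 the lowest of its 3 samples. Beside MafA, Ngn3 cells held 831, 843 and 613 CPM against 1762 and 1131 CPM in WT cultures, and 1387, 569.9 and 600.1 CPM against 1691, 1669.5 and 2026 CPM in 6SA cultures, where replicate 1 was the high one. In the annotation, a processed pseudogene, Krt8-ps, holds 26.9% of the 50-base windows of the Krt8 transcripts and is not a row of the count table. How reads from these stretches were counted is not given in the sources used here.

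Krt18 (ENSMUSG00000023043, chr15:102028180-102032027, plus strand), the type I partner of Krt8 and its neighbour on the chromosome, ran from 2517 to 6212 CPM (median 3880.4) without Ngn3. With Ngn3 it ran from 580.0 to 3769 CPM (median 1868). Most Ngn3 samples were low, 13 of 17 below the whole Ngn3-negative range, and 4 reached into it. The log2 fold change over the 6 pairs was -1.23 ± 0.21 (SE), adjusted p = 5.50e-05, a 2.35-fold fall, and Krt18 was lower in 13 of 14 same-numbered pairs. In 6SA cultures the 3-factor cells held 720.1 and 649 CPM against 4472, 4213 and 4241 CPM in Pdx1 with MafA cells, 6.29-fold lower. In WT cultures the 3-factor cells held 580.0, 803 and 2063 CPM against 3880.4, 3796 and 3626 CPM, 3.28-fold lower, with replicate 3 the highest of the 3. Beside Pdx1 the separation was lost in 6SA cultures, where Ngn3 cells held 946, 2679 and 3769 CPM and Pdx1 cells 3291 and 3958 CPM. Replicate 1 of these Ngn3 cells was far below and replicate 3 among the Pdx1 cells. In WT cultures Ngn3 with Pdx1 cells held 2057, 1617 and 2972 CPM and Pdx1 cells 3149 and 2997 CPM, so that replicate 3 came just short of the lowest Pdx1 sample. Beside MafA, Ngn3 cells held 2102, 1502 and 1989 CPM against 4008 and 2517 CPM in WT cultures, and 3096, 921 and 1868 CPM against 3068, 4215 and 6212 CPM in 6SA cultures.

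Krt19 (ENSMUSG00000020911, chr11:100140810-100148665, minus strand), a type I keratin and the usual marker of duct cells, showed the widest fall of the 4 keratins. It ran from 567 to 1524 CPM (median 1086) without Ngn3 and from 5.27 to 401 CPM (median 121) with it. Every Ngn3 sample was below every Ngn3-negative sample, which held for 0.15% of all genes tested, and the fall was 9.66-fold, a log2 fold change of -3.27 ± 0.38 (SE), adjusted p = 2.44e-07. In Pdx1 with MafA cells the 6 samples held 1497, 1215 and 567 CPM in WT cultures and 1524, 1357 and 1159.6 CPM in 6SA cultures. The 3-factor cells held 34.8, 5.27 and 128 CPM in WT cultures and 6.1 and 60.2 CPM in 6SA cultures, and the lowest value, in WT replicate 2, rested on 36 counts. All 5 were low, but they spread over more than 1 order of magnitude. In the presence of MafA alone, Ngn3 cells held 112, 42.5 and 36.8 CPM in WT cultures against 1086 and 824 CPM in MafA cells, 15-fold lower (adjusted p = 0.0442). In 6SA cultures Ngn3 with MafA cells held 322, 22.6 and 132 CPM against 933, 1186 and 1133 CPM, a log2 fold change of -2.77 ± 0.84 (SE) that was not called (adjusted p = 0.106), with replicate 1 well above the other two. Ngn3 with Pdx1 cells kept the most Krt19 of the Ngn3 cells, 216, 348 and 208 CPM in WT and 121, 401 and 388 CPM in 6SA cultures, against 986 and 759.7 CPM in WT and 762 and 1031 CPM in 6SA Pdx1 cells. In the order of the 12 condition means, the 6 Ngn3-negative conditions came first and the step to the highest Ngn3 condition, from 873 ± 160.0 CPM in WT Pdx1 cells (mean ± SD, n = 2) to 303 ± 158 CPM in 6SA Ngn3 with Pdx1 cells (n = 3), was the only one between neighbours whose samples did not overlap.

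Krt7 (ENSMUSG00000023039, chr15:101411043-101430313, plus strand), the duct type II keratin, was the 1 of the 9 not called over the 6 pairs. It ran from 675 to 2233 CPM (median 1164) without Ngn3 and from 619 to 1838 CPM (median 896) with it. The groups overlapped, with 12 of 17 Ngn3 samples inside the Ngn3-negative range and 5 below it, and the log2 fold change of -0.39 ± 0.19 (SE) was not called (adjusted p = 0.173). Within each of the 6 pairs of conditions the samples overlapped. The highest Ngn3-negative values were replicate 1 of the Pdx1 with MafA cells, which held 2096, 890.2 and 903 CPM in WT and 2233, 1278 and 1056 CPM in 6SA cultures. The 3-factor cells held 647, 642 and 1016 CPM in WT and 1097 and 767 CPM in 6SA cultures. Cells with Ngn3 and MafA held 1199.8, 769 and 776 CPM in WT and 1838, 657 and 655 CPM in 6SA cultures, where replicate 1 was the highest Krt7 value of any Ngn3 sample. MafA cells held 1420.5 and 675 CPM in WT and 1026, 1227 and 1164 CPM in 6SA cultures, so replicate 1 was the higher of the 2 in WT but the lowest of the 3 in 6SA cultures.

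Because a type I chain needs a type II partner, the make-up within each type was set out per kilobase in every sample. Krt19 made up 12.5% to 26% (median 20.4%) of Krt18 and Krt19 without Ngn3. With Ngn3 it made up 0.594% to 16.4% (median 5.99%), and the highest value, in WT Ngn3 with Pdx1 replicate 2, overlapped the lowest Ngn3-negative samples. Krt7 moved the other way among the type II chains, from 19.2% to 33.9% (median 23.7%) of Krt7 and Krt8 without Ngn3 to 28.3% to 45.5% (median 36.5%) with it, and in the 5 samples with all 3 factors every share was above the highest Ngn3-negative share. These shares are free of any scaling between samples. They are given without a test.

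**Figure D2:**
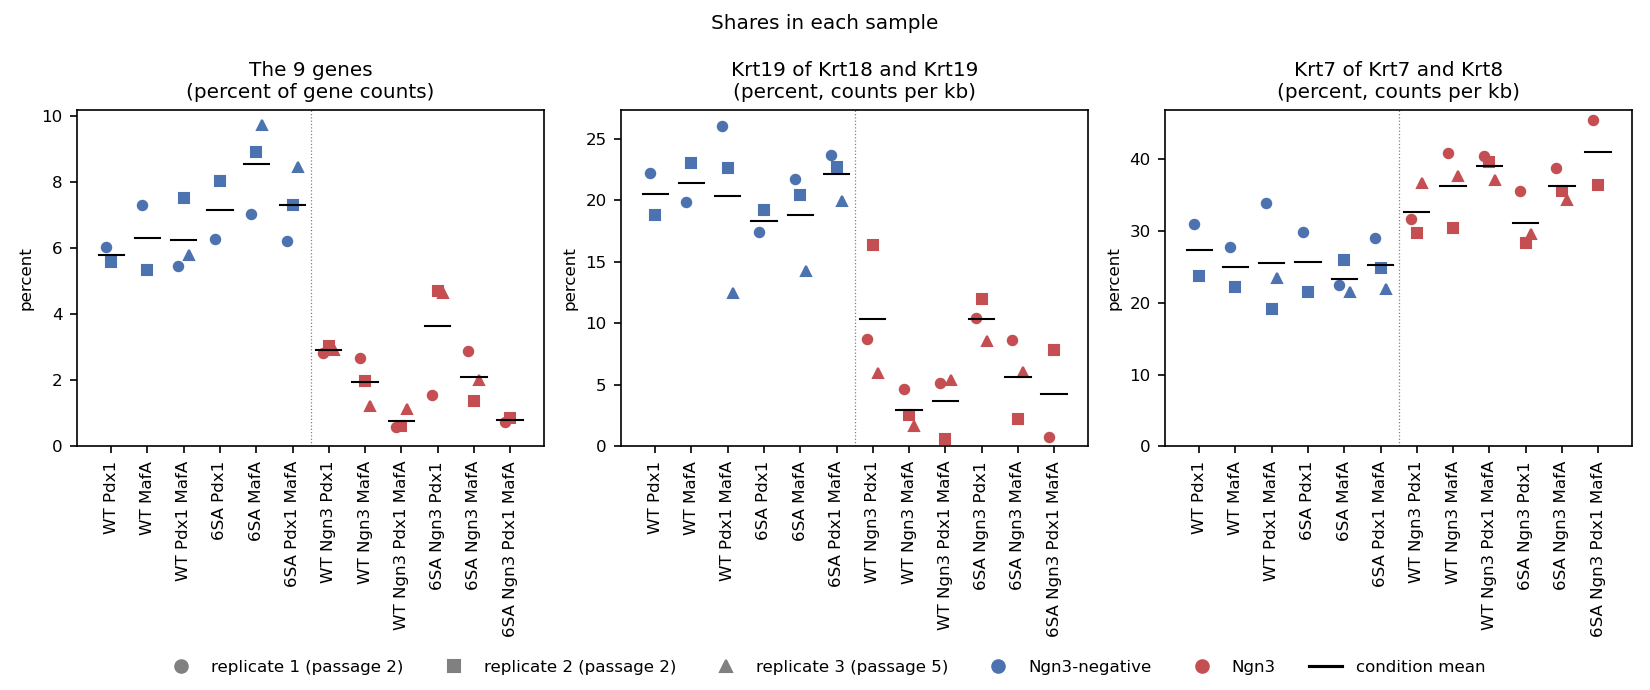
Percent of all gene counts taken by the 9 genes (left), percent of Krt19 in the sum of Krt18 and Krt19 (middle) and percent of Krt7 in the sum of Krt7 and Krt8 (right), the last 2 from counts per kilobase, in each sample (points, marked by replicate, blue without and red with Ngn3) of the 12 conditions (x), with condition means as lines. The 9 genes took 5.33% or more of counts in every Ngn3-negative sample and 4.69% or less in every Ngn3 sample.

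For Spp1 and Muc1, both lower over the 6 pairs, the 250 bases before a RefSeq start lie outside the GENCODE gene and are shown (RefSeq, GRCm38.p6). Ngn3 belongs to the basic helix-loop-helix factors, which bind E-boxes, and matches of CANNTG, which reads the same on both strands, are in capitals. Both windows are on the plus strand, 5′ to 3′, Spp1 at chr5:104434861-104435110 and Muc1 at chr3:89228806-89229055.
Spp1: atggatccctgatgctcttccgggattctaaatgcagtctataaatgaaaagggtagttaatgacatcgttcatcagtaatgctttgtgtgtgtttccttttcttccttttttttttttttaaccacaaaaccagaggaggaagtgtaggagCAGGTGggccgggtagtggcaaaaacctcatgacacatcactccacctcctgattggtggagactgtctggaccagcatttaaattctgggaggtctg
Muc1: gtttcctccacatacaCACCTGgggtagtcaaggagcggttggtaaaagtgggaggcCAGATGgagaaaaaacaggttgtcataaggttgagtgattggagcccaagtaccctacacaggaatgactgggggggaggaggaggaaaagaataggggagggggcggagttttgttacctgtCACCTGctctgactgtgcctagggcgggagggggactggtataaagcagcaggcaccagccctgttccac
The Spp1 window held 1 match and the Muc1 window 3, of which 1 was CAGATG on the plus strand, while 66.2% of 32851 windows of the same length held CANNTG and 14.4% held CAGATG on either strand. A match describes these letters and no binding. A second Spp1 window, at chr5:104435942-104436191, lies inside the annotated gene, held 2 matches of CANNTG and is not printed. For Krt7, Krt8, Krt18 and Prom1 the window overlapped the annotated gene and is not printed, and Krt19, Clu and Cd24a were not in the promoter table.

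Spp1 (osteopontin, ENSMUSG00000029304, chr5:104435118-104441050, plus strand), a secreted integrin-binding phosphoprotein made by duct cells, ran from 6055 to 52233 CPM (median 15362) without Ngn3 and from 63.8 to 13091 CPM (median 2556) with it. The fall was 9.61-fold over the 6 pairs, a log2 fold change of -3.26 ± 0.38 (SE), adjusted p = 3.07e-07, and Spp1 was lower in all 14 same-numbered pairs. Of the 17 Ngn3 samples, 15 were below the Ngn3-negative range, and the other two were 6SA Ngn3 with Pdx1 replicates 2 and 3. Pdx1 with MafA cells held 6437, 15883 and 15362 CPM in WT and 6055, 18160.0 and 20549 CPM in 6SA cultures. The 3-factor cells held 265, 63.8 and 522 CPM in WT and 69.2 and 526 CPM in 6SA cultures, 44.3-fold and 50.2-fold lower, the widest differences of any of the 9 genes in these comparisons (adjusted p = 8.99e-04 and 0.00402). No 3-factor sample came within reach of the partner cells. Ngn3 with MafA cells lay between, at 3777, 2992 and 829 CPM in WT and 3522, 1048 and 3159 CPM in 6SA cultures, against 18998 and 14121 CPM in WT and 14649, 23923 and 52233 CPM in 6SA MafA cells. The highest of these MafA values is the sample that stood apart, and without it the 6SA difference was -2.89 on the log2 scale with adjusted p = 0.161. Ngn3 with Pdx1 cells held 2556, 5972 and 4816 CPM in WT and 1147, 10845 and 13091 CPM in 6SA cultures, against 8555 and 13579 CPM in WT and 8038 and 22942 CPM in 6SA Pdx1 cells. In 6SA cultures these overlapped, with replicate 1 of the Ngn3 cells far below replicates 2 and 3. A predicted gene, Gm42793, shares 309 exon bases with Spp1 on the same strand.

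Clu (clusterin, ENSMUSG00000022037, chr14:65968483-65981547, plus strand), a secreted chaperone, was the most abundant of the 9 genes per kilobase and had the lowest adjusted p of the 9 over the 6 pairs. It ran from 32758 to 73857 CPM (median 46374) without Ngn3 and from 2269 to 28338 CPM (median 9191) with it. No Ngn3 sample reached the Ngn3-negative range, and the fall was 5.58-fold, a log2 fold change of -2.48 ± 0.21 (SE), adjusted p = 9.12e-10. Ngn3 with Pdx1 cells were the highest of the Ngn3 cells, at 14975, 14710.0 and 16275 CPM in WT and 7066, 24790.0 and 28338 CPM in 6SA cultures, against 41224 and 34554 CPM in WT and 42774 and 55201 CPM in 6SA Pdx1 cells. Ngn3 with MafA cells followed at 13709, 9191 and 5929 CPM in WT and 14462, 6843 and 11042 CPM in 6SA cultures, against 46374 and 32758 CPM in WT and 48383, 63611 and 73857 CPM in 6SA MafA cells. With all 3 factors Clu was down to 2474, 2269 and 4572 CPM in WT and 3422 and 3294 CPM in 6SA cultures, against 36311, 52632 and 37205 CPM in WT and 41959, 51746 and 62848 CPM in 6SA Pdx1 with MafA cells. These 5 samples were the lowest of the 32. Over the condition means Clu went from 61950.0 ± 12818 CPM in 6SA MafA cells (mean ± SD, n = 3), the highest, to 3105 ± 1275 CPM in WT 3-factor cells (n = 3), the lowest.

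Of the surface proteins, Muc1 (ENSMUSG00000042784, chr3:89229057-89233381, plus strand), a membrane mucin of the apical face of duct cells, separated the groups as fully as Clu. It ran from 562 to 1117 CPM (median 844) without Ngn3 and from 19.3 to 399.6 CPM (median 124) with it. All 17 Ngn3 samples were below all 15 others, a fall of 6.71-fold and a log2 fold change of -2.75 ± 0.24 (SE), adjusted p = 1.98e-09. The 3-factor cells held 45.6, 19.3 and 124 CPM in WT and 23.8 and 89.4 CPM in 6SA cultures, against 872, 1075 and 585 CPM in WT and 1117, 866 and 810.2 CPM in 6SA Pdx1 with MafA cells. Ngn3 with MafA cells were nearly as low, at 129, 74.8 and 94.8 CPM in WT and 158, 53.1 and 117 CPM in 6SA cultures, against 652 and 592 CPM in WT and 936, 816 and 562 CPM in 6SA MafA cells. Ngn3 with Pdx1 cells held 294, 172 and 286 CPM in WT and 173, 399.6 and 332 CPM in 6SA cultures, against 931 and 586 CPM in WT and 1032 and 844 CPM in 6SA Pdx1 cells. Among the Ngn3 conditions, both Ngn3 with Pdx1 conditions came first, and the lowest WT Ngn3 with Pdx1 sample was above the highest 6SA Ngn3 with MafA sample, the next in the order of means. Muc1 was the only one of the 9 genes besides Clu called beside MafA in both kinds of culture, with adjusted p = 0.0238 in WT and 0.00478 in 6SA.

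Cd24a (ENSMUSG00000047139, chr10:43578284-43584265, plus strand), a small lipid-anchored glycoprotein used to sort epithelial progenitors, ran from 1075 to 1765 CPM (median 1419) without Ngn3 and from 343 to 1462 CPM (median 868) with it. Of the 17 Ngn3 samples, 12 lay below the Ngn3-negative range, and the fall over the 6 pairs was 1.82-fold, a log2 fold change of -0.87 ± 0.14 (SE), adjusted p = 4.96e-05. The 3-factor cells held 404, 444 and 640.4 CPM in WT and 343 and 523 CPM in 6SA cultures, all among the 6 lowest of the 32 samples, against 1239, 1765 and 1157 CPM in WT and 1660.0, 1621 and 1658 CPM in 6SA Pdx1 with MafA cells. Beside 1 partner factor the groups were close. Ngn3 with Pdx1 cells held 1207, 776 and 963 CPM in WT and 1144, 1378 and 995 CPM in 6SA cultures, against 1348 and 1075 CPM in WT and 1713 and 1644 CPM in 6SA Pdx1 cells. Beside MafA, Ngn3 cells were at 782, 1462 and 550.0 CPM in WT and 1135, 872 and 868 CPM in 6SA cultures, against 1194 and 1164 CPM in WT and 1419, 1706 and 1329.5 CPM in 6SA MafA cells. In the WT cultures both of these comparisons overlapped, and replicate 2 of the Ngn3 with MafA cells held more Cd24a than either MafA sample.

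Prom1 (prominin 1, also called CD133, ENSMUSG00000029086, chr5:43993620-44102032, minus strand), a membrane protein of microvilli and other protrusions, had the weakest call. It ran from 600.4 to 4359 CPM (median 1275) without Ngn3 and from 315 to 2759 CPM (median 1056) with it, and only 3 of 17 Ngn3 samples lay below the Ngn3-negative range. The log2 fold change over the 6 pairs was -0.70 ± 0.24 (SE), adjusted p = 0.0337, and the call was lost with RLE size factors (adjusted p = 0.0699), with plain totals (0.184), with the first technical repeat alone (0.0614), without replicate 1 (log2 fold change -0.02, adjusted p = 1) and without replicate 3 (0.0614). The highest 3 values of Prom1 were all replicate 1 samples without Ngn3. Pdx1 cells held 3068 and 1215 CPM in WT and 4359 and 1582 CPM in 6SA cultures. Ngn3 with Pdx1 cells held 1430.3, 1364 and 914 CPM in WT and 1387, 1562 and 931 CPM in 6SA cultures, all below both Pdx1 samples in 6SA cultures and 2 of 3 above Pdx1 replicate 2 in WT cultures. Ngn3 with MafA cells held 1279.9, 2759 and 717 CPM in WT and 1056, 1568 and 1413 CPM in 6SA cultures, against 1285 and 1128 CPM in WT and 1935, 1092 and 600.4 CPM in 6SA MafA cells. Here the fitted difference had the opposite sign, 0.39 ± 0.61 in WT and 0.15 ± 0.54 in 6SA cultures on the log2 scale (SE), and neither was called (adjusted p = 0.975 and 0.992). With all 3 factors Prom1 stood at 315, 825 and 496 CPM in WT and 375 and 807 CPM in 6SA cultures, against 1275, 1852 and 872 CPM in WT and 3017, 1115 and 859.9 CPM in 6SA Pdx1 with MafA cells, with no overlap in either culture and no call (adjusted p = 0.194 and 0.176). These comparisons set 3 or 2 samples with Ngn3 against 3, and the share of all genes without such overlap was not counted. An antisense transcript, Gm16401, shares 424 exon bases with Prom1, and whether the counting used strand is not stated in the sources used here.

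Whether the difference with Ngn3 depended on the partner factor was read first within each pair of conditions. Beside Pdx1 none of the 9 genes was called by edgeR in WT or in 6SA cultures (0 of 9 in each, where 0% of all genes were called lower in WT and 0% in 6SA), although 2 of the 9 in each had an unadjusted p under 0.05, as did 5% of all genes in WT and 6.94% in 6SA. DESeq2 also called 0 of the 9 in each, and 0.0833% and 0.0625% of all genes lower. Beside MafA 3 genes were lower in WT cultures, Krt19, Clu and Muc1, where 0.354% of all genes were called lower. In 6SA cultures 3 were lower beside MafA, Spp1, Clu and Muc1, where 0.404% of all genes were. Beside both factors 7 of the 9 were lower in each kind of culture, all but Krt7 and Prom1, where 2.38% of all genes were called lower in WT and 2.5% in 6SA. The 6SA count rested on 2 samples with all 3 factors. Without replicate 2, which left 2 samples or 1 in each condition, 1 of the 9 was called in WT and 2 in 6SA cultures beside both factors, and 0 in both beside MafA. Over all genes the share called lower then dropped too, to 0.142% in WT and 0.233% in 6SA cultures beside both factors and to 0.00417% and 0.0125% beside MafA. Without replicate 3, 0 of the 9 and 0.208% of all genes were called lower beside MafA in WT cultures.

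**Figure D3:**
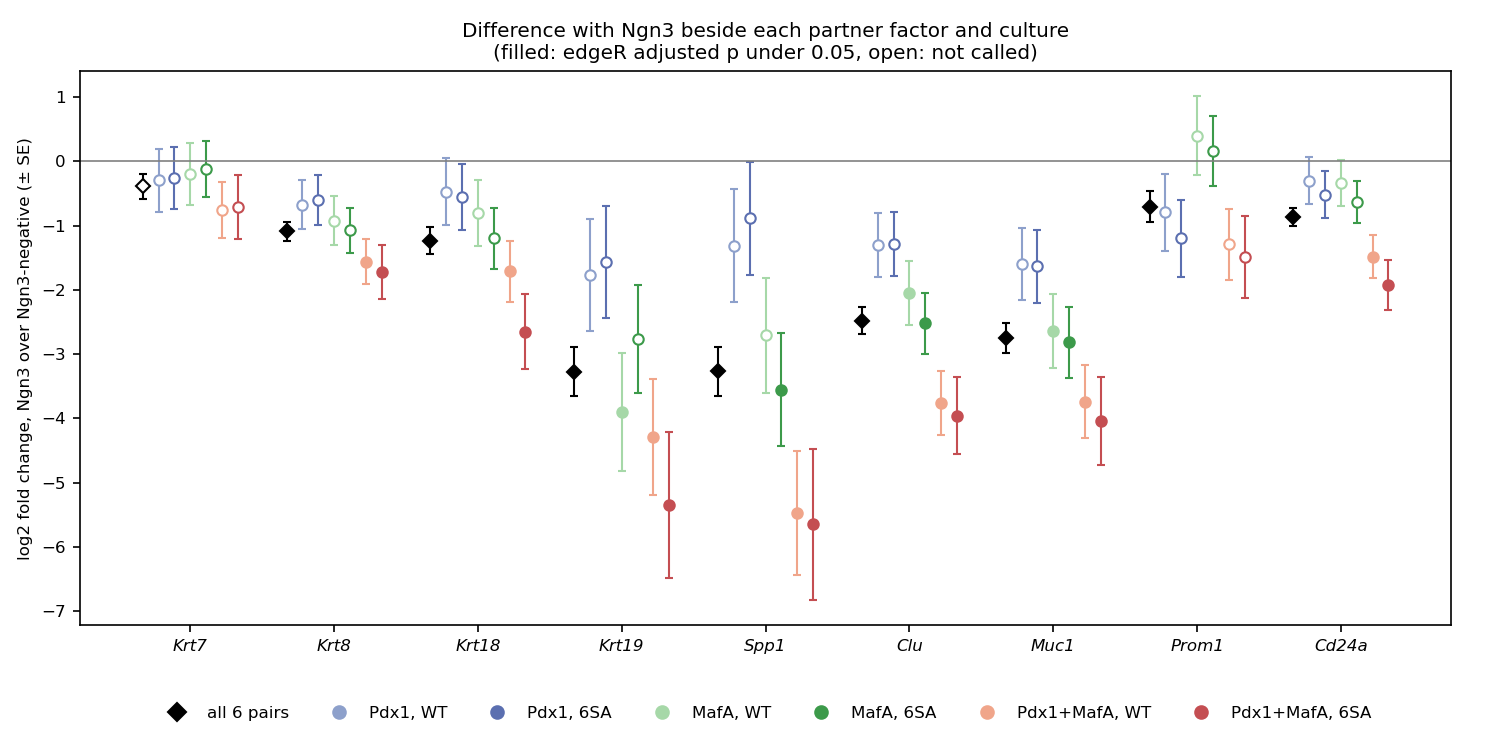
Log2 fold change of Ngn3 cells over Ngn3-negative cells (y, ± SE) for each of the 9 genes (x), over all 6 pairs (black) and beside Pdx1, MafA or both in WT and 6SA cultures (colours). Filled symbols passed an edgeR adjusted p of 0.05. Beside Pdx1 all symbols are open, and beside Pdx1 and MafA the values run down to -5.65 for Spp1.

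The difference between partner factors was then tested itself. For Clu the effect of Ngn3 beside both factors differed from that beside Pdx1 by -2.56 ± 0.51 on the log2 scale (SE, adjusted p = 0.044), the 1 call among the 9 genes, where 0.0708% of all genes were called lower. Spp1 had the widest such difference, -4.46 ± 0.95 (SE), and was not called (adjusted p = 0.061), and 7 of the 9 had an unadjusted p under 0.05, against 7.12% of all genes. The Clu call was lost without replicate 1 (adjusted p = 0.0644), without replicate 2 (1) and without replicate 3 (0.0518), while its value stayed between -2.76 and -2.32. Blocking on the replicate number also called Spp1 (-4.08, adjusted p = 0.032). Against the effect beside MafA, edgeR called 0 of the 9 genes, where 0.0375% of all genes were called lower, with 6 of the 9 and 9.35% of all genes at an unadjusted p under 0.05. DESeq2 called 2 of the 9, and 0.808% of all genes lower. The values ran from -2.43 for Spp1 to -0.57 for Krt7.

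Among Ngn3 cells, adding MafA to Ngn3 and Pdx1 was compared over both kinds of culture. Krt18, Krt19, Spp1, Clu, Muc1 and Cd24a were lower with all 3 factors than with Ngn3 and Pdx1, 6 of the 9, where 1.35% of all genes were called lower. Spp1 fell 21-fold (-4.39 ± 0.73 on the log2 scale, SE, adjusted p = 0.00134) and Clu 5.43-fold (-2.44 ± 0.37, adjusted p = 5.07e-04). Krt7, Krt8 and Prom1 were not called, at -0.25 ± 0.33, -0.75 ± 0.27 and -1.16 ± 0.42. Adding Pdx1 to Ngn3 and MafA gave 3 calls, Spp1, Clu and Cd24a, where 1.56% of all genes were called lower. Spp1 was 8.79-fold lower (adjusted p = 0.0126), Clu 3.15-fold lower (0.0112) and Cd24a 2.04-fold lower (0.026). Muc1, already low in Ngn3 with MafA cells, differed by -0.80 ± 0.39 and was not called (adjusted p = 0.265), and Krt19 differed by -1.23 ± 0.61 (adjusted p = 0.279), a sign that turned without replicate 1 (0.20). Blocking on the replicate number called 977 of all 24004 genes lower in the comparison with Ngn3 and MafA, against 374 without it. With the replicate block, Krt18 and Prom1 were called as well (adjusted p = 0.0305 and 0.0131), and without replicate 2 edgeR called 0 of the 9 in either comparison, and 0.0583% of all genes lower in the first and 0% in the second.

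Whether the phospho-mutant form acted differently on these genes was asked over the 3 combinations. In Ngn3 cells, 6SA against WT gave differences from -0.17 (Krt18) to 0.33 (Spp1) on the log2 scale, with SEs from 0.20 to 0.48. EdgeR called 0 of the 9, and 0% of all genes in either direction, with 0 of the 9 at an unadjusted p under 0.05 (5.92% of all genes) and 0 called by DESeq2 (0.108% of all genes). Between the Ngn3-negative cells of the 2 kinds of culture the differences were 0.16 to 0.53, all 9 in the same direction, higher in 6SA, with 0 calls by edgeR (0% of all genes), 0 at an unadjusted p under 0.05 (2.46%) and 0 by DESeq2 (0.0333%). The interaction, the Ngn3 effect in 6SA minus that in WT cultures, ran from -0.47 ± 0.41 for Krt18 to 0.09 ± 0.70 for Krt19 (SE), again with 0 calls by edgeR (0% of all genes), 0 of the 9 at an unadjusted p under 0.05 (2.7%) and 0 by DESeq2 (0.0208%). With SEs of up to 0.70, a 2-fold difference in Krt19 between the 2 forms was not detectable with these samples. Without Ngn3, Pdx1 cells against MafA cells differed by -0.77 (Spp1) to 1.06 (Prom1), with 0 calls by edgeR (0% of all genes) or DESeq2 (0.1%) and 1 unadjusted p under 0.05, for Prom1 (2.81% of all genes).

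Pools of 50 cells sorted from the same organoids showed how even the levels were. In 9 Ngn3-negative samples with more than 1 library, the highest library of Krt19 was a median of 1.24 times the lowest, and in 8 Ngn3 samples 4.13 times. For Krt8 the same medians were 1.25 and 1.61. The widest case was WT 3-factor replicate 1, whose 3 libraries held 1.03, 122 and 2.53 CPM of Krt19 (of the library's total on genes). Spp1 in the same 3 libraries stood at 35.9, 56.9 and 508 CPM, so that the library high in Krt19 was not the one high in Spp1. Clu varied most in 6SA Ngn3 with Pdx1 replicate 1, from 3354 to 14073 CPM. In Ngn3-negative samples no gene of the 9 varied by more than 2.24-fold between libraries of a sample. How much of this spread came from the sort, the cells or the library preparation was not tested.

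**Figure D4:**
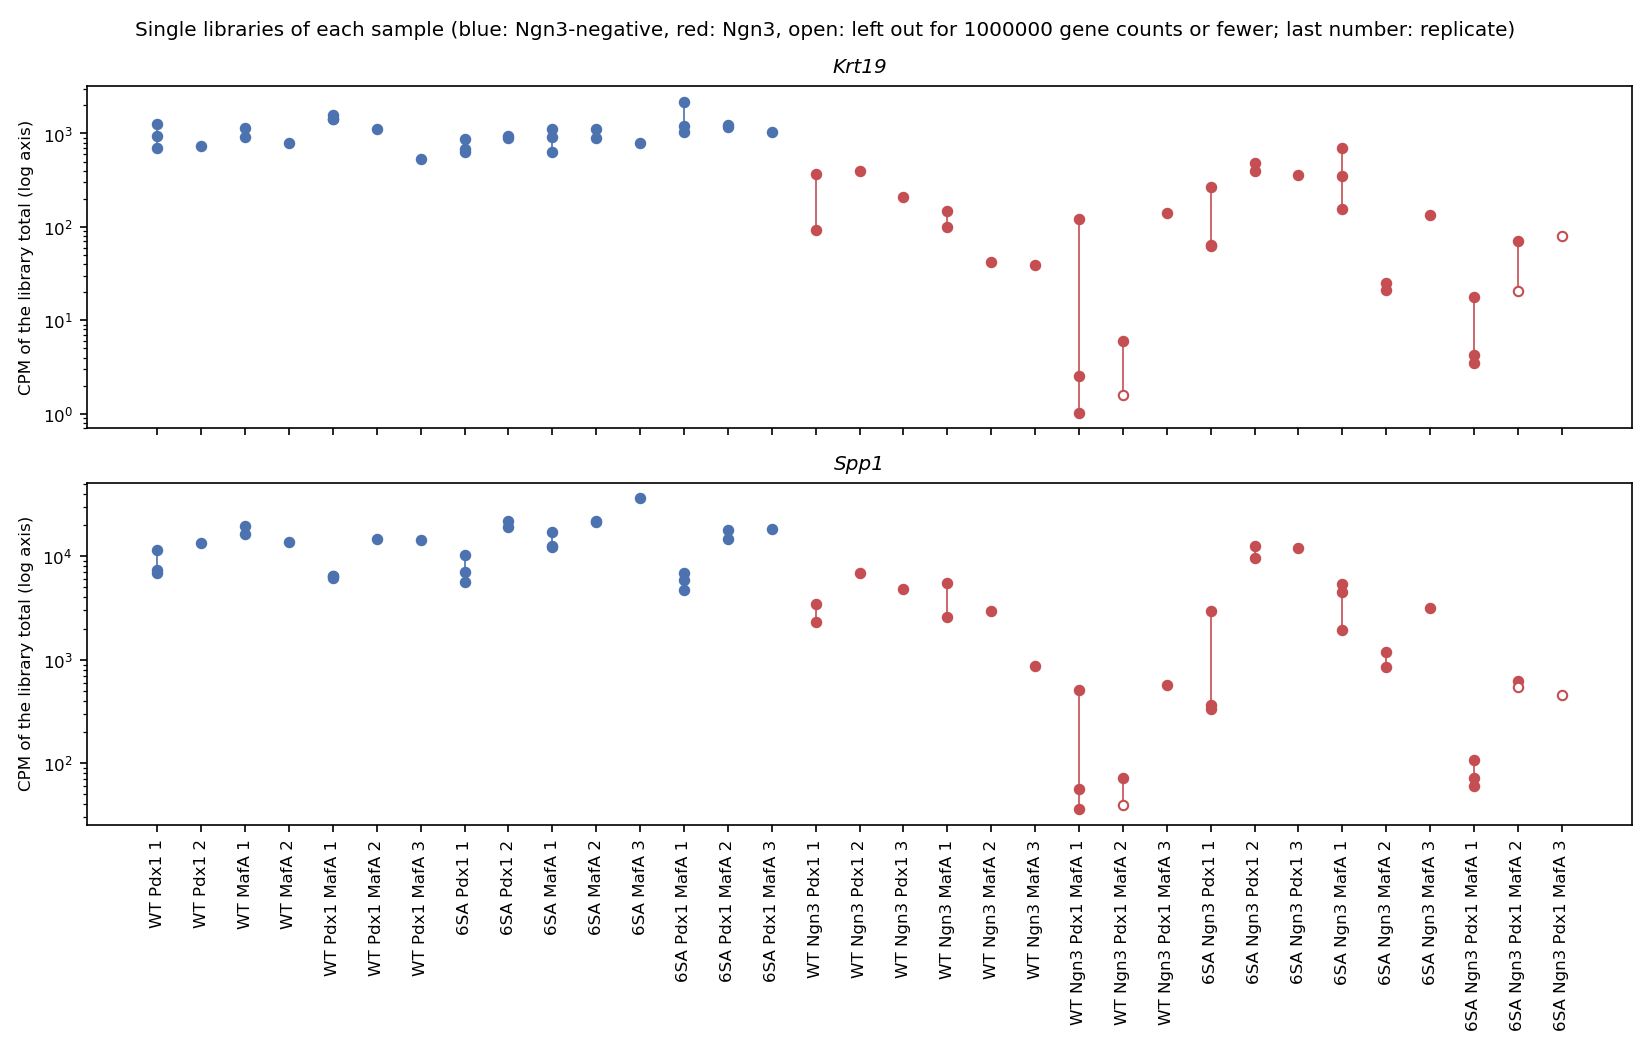
Krt19 (top) and Spp1 (bottom) in every library, in CPM of the library's total on genes (y, log axis), for each sample (x, named by condition and replicate), with a line joining the technical repeats of a sample. Blue libraries are Ngn3-negative, red ones have Ngn3, and open circles are the 3 libraries left out for low totals. Libraries of WT 3-factor replicate 1 run from 1.03 to 122 CPM of Krt19.

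Replicates 1 and 2 were organoids at passage 2 and replicate 3 at passage 5, so passage and replicate cannot be told apart. Within passage 2 alone, Krt8, Krt18, Krt19, Spp1, Clu, Muc1 and Cd24a were called lower with Ngn3 over the 6 pairs, with log2 fold changes from -3.51 for Krt19 to -0.84 for Cd24a, and Prom1 (-0.71, adjusted p = 0.0614) and Krt7 (-0.49, 0.146) were not, where 10.4% of all genes were called lower. At passage 5 only 2 pairs existed. In WT Pdx1 with MafA cells the log2 ratio of Ngn3 over partner at replicate 3 was -2.14 for Krt19, -4.88 for Spp1 and -2.23 for Muc1. In 6SA MafA cells it was -3.10, -4.05 and -2.27, with the sample that stood apart as partner. The ratio was positive for Krt7 in the WT pair (0.17) and for Prom1 in the 6SA pair (1.23), and negative for the other genes of each pair. In the 8 conditions with all 3 replicates, replicate 3 held less Prom1 than both others in 6 and more in 0. Cd24a was lowest at replicate 3 in 5 of the 8 and Clu highest in 5. Leaving out the 6SA MafA sample that stood apart left 8 of 9 genes called over the 6 pairs (10.3% of all genes lower), with Prom1 at adjusted p = 0.0266. Beside MafA in 6SA cultures it left 2 of the 3 calls, Clu and Muc1 (0.267% of all genes lower).

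Likeness between genes was described by Spearman's rho over the 12 condition means, which come from the same libraries and carry the same split between Ngn3 and Ngn3-negative cells. Among the 9 genes, Muc1 with Cd24a (0.99) and Krt8 with Clu (0.99) were most alike. Prom1 stood off, with rho from 0.28 with Spp1 to 0.59 with Muc1. Over 10174 other genes with a mean of at least 10 CPM, the closest to Krt19 were Id2, an inhibitor of helix-loop-helix factors (0.99), and Car13, a carbonic anhydrase (0.98). Closest to Krt18 were Gm17847, a processed pseudogene (1) that shares 5 of 1388 50-base windows with it, and Anxa3 (0.99). Clu was closest to the annexin Anxa4 and to the protease gene Ctse (0.99 each), and Spp1 to Cd14, a lipopolysaccharide co-receptor, and Crp, an acute-phase protein (0.99 each). Krt8 was closest to Ctse and Fiz1 (0.99 each), and Krt7 to Fiz1 and Nsdhl (0.97 and 0.96). Muc1 was closest to Pik3ap1 and 2610301B20Rik (0.98 and 0.97), Cd24a to Tinagl1 and Vtcn1 (0.99 each), and Prom1 to Gm12009 and Pcyox1 (0.97 and 0.92).

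Other genes of the same kinds were counted over the 6 pairs from lists drawn up by name, against 10.5% of all genes called lower and 11.1% called higher. Of 17 other keratins, 16 were tested, 8 fell and 1 rose, with a median log2 fold change of -2.94. Krt23, a type I keratin of gut and duct epithelium, had medians of 79 against 6.2 CPM, adjusted p = 3.45e-06. Krt6a (9.24 against 0 CPM, adjusted p = 2.83e-06) and Krt6b (16 against 0.153 CPM, adjusted p = 1.08e-04), keratins of stratified and stressed epithelia, were low throughout, and the 1 that rose was Krt222 (0 against 0.174 CPM, adjusted p = 0.0301).

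Of 30 other surface proteins of duct and epithelial cells, 29 were tested, 18 fell and 3 rose (median -1.26). Plet1, an epithelial surface protein, had medians of 466 against 50.4 CPM, adjusted p = 6.47e-08, and the mucin Muc20 56.1 against 7.31 CPM, adjusted p = 1.60e-07. The 3 that rose were Anpep, aminopeptidase N (0 against 7.96 CPM, adjusted p = 1.79e-07), the tetraspanin Cd63 (149 against 404 CPM, adjusted p = 2.31e-04) and the complement regulator Cd55 (35.4 against 71.6 CPM, adjusted p = 3.80e-04). Epcam, a pan-epithelial adhesion protein of this list, had medians of 1577 CPM without and 649 CPM with Ngn3. It ran from 133 to 2358 CPM without and 84.3 to 1497 CPM with Ngn3 and was not called (-0.76 ± 0.47 on the log2 scale, SE, adjusted p = 0.311). Cdh1, the adhesion protein E-cadherin, had medians of 498 and 504 CPM and was not called (-0.26 ± 0.16, adjusted p = 0.281).

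Of 24 other secreted duct products, 17 fell and 5 rose (median -2.77). The interleukin 1 receptor antagonist Il1rn had medians of 597 against 50.6 CPM, adjusted p = 6.90e-10. The lipopolysaccharide-binding protein Lbp (488 against 95.3 CPM, adjusted p = 3.54e-09) and the chemokine Cxcl5 (3826 against 157 CPM, adjusted p = 1.91e-08) fell too. Tff3, a trefoil peptide, rose (0 against 28.3 CPM, adjusted p = 2.03e-10), as did Ambp (28.8 against 96.7 CPM, adjusted p = 1.11e-04) and Serpina1a, the last with a median of 0 CPM in both groups (adjusted p = 0.017). Of 20 keratin partners and cytoskeletal linkers, 3 fell and 4 rose, with a median of -0.16. The actin-binding Pof1b (70.1 against 12.1 CPM, adjusted p = 4.56e-08), the plakin Ppl (83.7 against 43.4 CPM, adjusted p = 1.03e-04) and the desmosome protein Pkp3 (55.8 against 29.8 CPM, adjusted p = 0.013) fell. The neuronal intermediate filament genes Nefm (0.12 against 159 CPM, adjusted p = 4.55e-12), Nefl (0.559 against 37.2 CPM, adjusted p = 1.84e-07) and Ina (3.9 against 17.8 CPM, adjusted p = 1.56e-04) rose. With RLE size factors or plain totals the number of lower genes was 8 among the keratins, 17 or 18 among the surface proteins, 17 among the secreted products and 2 or 3 among the partners. DESeq2 and the first technical repeat alone gave 7 lower keratins each. Leaving out replicate 1 or replicate 2 gave fewer lower keratins still, and leaving out replicate 2 fewer lower secreted products. The numbers that rose moved as well. Over the alternatives run for this comparison, the keratins gave 0 to 2, with 0 under both other gene filters, with the first technical repeat alone and with any replicate number left out, and the secreted products gave 2 to 5, with 3 by DESeq2 and 2 with the first technical repeat alone. The surface proteins gave 2 to 3 and the partners 3 to 5.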

How the data were processed

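RNA was measured in 61 libraries of 50 sorted cells each, from duct organoids of C57BL/6 mice. The authors deposited whole-number counts per gene for each library, with reads aligned to mm10 with GSNAP and counted with HTSeq (version 0.5.3p3) per the labels, together with 92 spike-in rows and 5 rows of reads given to no gene. Among the libraries kept, reads on no gene made up 8.69% to 31.7% and reads ambiguous between genes 3.92% to 17.4%. These are shares of the reads on genes, on spike-ins, on no gene or ambiguous, with unaligned reads left out. The share on no gene had a median of 14.2% over the Ngn3-negative samples and 19.2% over the Ngn3 samples. The row for multiply aligned reads was 0 throughout. The spike-in rows and the 5 rows of reads given to no gene stayed out of totals and tests. Whether counting used strand is not given in the sources used here.

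Libraries with more than 1000000 gene counts were kept (58, the same under the study's further limits of 10000 genes and 25% spike-ins), 3 were left out, and technical repeats were summed, giving 32 samples in 12 conditions taken from the labels. Gene IDs were matched to GENCODE M21 symbols (45143 of 46078). The test took 24004 genes, those detected in 5 or more libraries whose log2 CPM had a variance above 0.001. One edgeR (4.0.16, R 4.3.3) quasi-likelihood fit of 12 conditions with TMM factors and trended dispersions gave 15 contrasts, with Benjamini-Hochberg adjustment over all genes in each contrast. The edgeR fit of the 6 pairs, with and without the replicate block, was tested on simulated data. DESeq2 (1.42.0), other scalings, gene filters, library choices, a replicate block and omitted replicates were the alternatives. Sample totals were 2579583 to 19461008 counts, so 3 counts, taken as the limit of detection, came to at most 1.01 CPM. The labels do not say whether replicates came from separate animals, so p-values measure the spread between these samples, which may be technical in part.

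Same-numbered samples deviated together in every pair of the 2 comparisons with 3 pairs (correlations of deviations from the condition mean 0.127 to 0.441 over 5000 genes), which counts as pairing there. The other 4 comparisons had 2 pairs each. Their correlations were 0.72 and 0.52 beside Pdx1 in WT cultures and 0.76 and 0.62 beside Pdx1 in 6SA cultures. They were 0.41 and 0.35 beside MafA in WT cultures and -0.423 and -0.361 beside both factors in 6SA cultures. The reported fit did not block on the replicate number in any comparison.

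The 9 genes, the gene lists and the rules were chosen with earlier results of these data known. The 9 genes were named in every comparison, as were the 3 lowest adjusted p-values in each direction of each list, Neurog3, and for each of the 9 the 2 genes with the highest Spearman's rho. A gene that this rule names among the surface proteins is not reported here. Sox9, Cftr, Chga, Neurod1, Pax4, Pax6, Ptf1a, Amy2a5, Adgre1 and Cdh5, from the cell type marker lists, and Epcam, Cdh1, Gm42793, Gm16401 and the pseudogenes are named beyond that rule and were chosen after their values were seen. Promoter sequences are from RefSeq, and protein sequences were not used here.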

Additional observations from a re-analysis of the deposited data

Results flagged for a closer look

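The difference of Ngn3 cells from their partners was not the same beside every partner factor for Clu. Beside Pdx1 and MafA together the log2 fold change was more negative than beside Pdx1 alone, by -2.56 ± 0.51 (SE), in the test of the difference itself over WT and 6SA cultures (edgeR adjusted p = 0.044 over all genes). Of the 14 alternatives run, 10 kept the call, with values from -2.76 to -2.32 over all 14. The 4 that lost it were the omissions of replicate 1, 2 or 3 and the fit to the 8 conditions compared.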

How the results depend on the processing

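Of 208 recomputed counts of called genes among the 9, 179 stayed within 1.5 times the reported count, and of 1377 recomputed log2 fold changes 1256 kept their sign and their side of the threshold, 60 lost a call, 45 gained one and 16 turned sign. With the filter on low counts dropped, the count of called genes was 1 beside Pdx1 in both WT and 6SA cultures, 6 for 3 factors against Ngn3 with MafA, 5 for the difference between both factors and Pdx1 and 3 for that between both factors and MafA. Of all 31181 genes then tested, 109, 105, 946, 415 and 377 were called lower in these comparisons, against 0, 0, 374, 17 and 9 of 24004 with the filter. DESeq2 called 5 beside MafA in 6SA cultures, 5 for 3 factors against Ngn3 with MafA, and 5 and 2 for these differences, where it called 406, 1111, 187 and 194 of all genes lower. Over all genes DESeq2 called 2481 and 2921 genes beside both factors in WT and 6SA cultures, against 1167 and 1390 by edgeR. Without edgeR's legacy setting the counts were 5 for 3 factors against Ngn3 with MafA and 2 for the difference from Pdx1, and with the replicate block they were the same 5 and 2. For 3 factors against Ngn3 with MafA, these 2 fits called 729 and 977 of all 24004 genes lower, against 374 as reported. The block moved no other count of the 9 by more than 1.5 times, and it was called pairing only where 3 pairs existed. In 6SA cultures beside both factors the same-numbered samples correlated at -0.423 and -0.361. Plain totals left 1 gene beside MafA in WT cultures, the first technical repeat alone gave 2 for the difference from Pdx1, and fits of only the conditions compared gave 1 beside Pdx1 in WT cultures, 3 for 3 factors against Ngn3 with Pdx1 and 0 for the difference from Pdx1. Of all 24004 genes, plain totals called 49 lower beside MafA in WT cultures, against 85 as reported. Fits of only the conditions compared called 147 lower beside Pdx1 in WT cultures, against 0. For 3 factors against Ngn3 with Pdx1 they called 89 lower, against 325. Leaving out 1 replicate number gave 0 to 3 beside MafA in WT cultures, 1 to 7 beside both factors in WT and 2 to 7 in 6SA cultures, 0 to 5 beside MafA in 6SA cultures, 0 to 6 for 3 factors against Ngn3 with Pdx1, 0 to 4 against Ngn3 with MafA and 0 to 1 for the difference from Pdx1. Omitting a replicate leaves some conditions with 1 sample, which is assumed to vary like the others. The cause of the other changes was not tested.

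The sign turned only for values that were not called. Over the omissions of replicate 1, 2 or 3, Krt7 ran from -0.55 to 0.17 beside Pdx1 and from -0.52 to 0.22 beside MafA in WT cultures. In 6SA cultures Krt7 ran from -0.53 to 0.15 beside Pdx1 and from -0.83 to 0.19 beside MafA, where it was 0.21 with plain totals. For 3 factors against Ngn3 with MafA, Krt7 ran from -0.57 to 0.18 and Krt19 from -2.54 to 0.20, and for the difference between both factors and MafA Krt7 ran from -1.16 to 0.0017 and Krt19 from -2.73 to 0.10. Beside MafA, Prom1 ran from -0.36 to 0.85 in WT and from -0.22 to 0.84 in 6SA cultures, and Cd24a from -0.84 to 0.033 in WT cultures. Leaving out replicate 3 of the 6SA MafA cells, an alternative chosen after seeing the data, turned Prom1 there to -0.13 and ended the Spp1 call (-2.89, adjusted p = 0.161). Every sample held at least 36 counts of each of the 9 genes, and 4 of the 12 conditions had only 2 samples.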

Other observations

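The 3 libraries left out fell under the limit of 1000000 gene counts, all from cells with the 3 factors. Their values entered only the alternative fits to all libraries. The WT replicate 2 library, with 625650 counts in all, held 1 count of Krt19, 25 of Spp1 and 746 of Clu. The 6SA replicate 2 library (241563 counts) held 5 counts of Krt19, 132 of Spp1 and 616 of Clu. The 6SA replicate 3 library (408733 counts) was the sole library of its sample and held 33 counts of Krt19, 187 of Spp1 and 1113 of Clu. Scaled to the library's own total, Clu stood at 1192, 2550.1 and 2723 CPM, and Krt8 at 392, 409.8 and 382 CPM. All 3 Clu values were below the lowest Ngn3-negative sample, and so were all 3 Krt8 values.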
